A study of Mus musculus with 2 samples.

Results

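Type I interferon response genes were followed across the immune cell classes of mouse tumors. The list holds 45 genes known to be induced by type I interferon, and was taken by gene name. It was chosen with earlier results of these data known, so it is not independent of them. Of these, 44 had a row among the 27998 genes of both count matrices, and Mx2 was not analysed here. The animals were female mice with B16Ova tumors in the flank, a transplanted B16 melanoma that expresses ovalbumin. Both groups carried Tcf7 FL/FL alleles, in which Tcf7 is flanked by sites that Cre recombines. The wildtype group (WT) was E8i-cre- and the knockout group (KO) was E8i-cre+. The E8i enhancer of the Cd8 locus drives this Cre in mature CD8 T cells, and CD4 T cells and myeloid cells are not its known targets. On day 13, CD45+ cells of 3 tumors per group were sorted into CD8 T cells, CD4 T cells, CD11c+ MHCII+ cells and the remaining leukocytes, and the sorts were mixed in equal parts. Each group then gave 1 droplet library in which the tumors cannot be told apart. There were no replicate libraries, no test between genotypes was possible, and every interval below is a 95% interval that covers counting error only.

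Type I interferons, the interferon alphas and interferon beta, bind a receptor made of Ifnar1 and Ifnar2. The kinases Jak1 and Tyk2 then signal to a transcription factor complex that holds Stat2 and Irf9 and binds interferon-stimulated response elements in promoters. The induced genes encode proteins that sense viral nucleic acids, degrade or sequester viral RNA, block viral entry and release, and regulate the response itself. In tumors, type I interferon that acts on dendritic cells is known to support the priming of CD8 T cells.

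The binding site gives these genes a common sequence feature. RefSeq promoter windows on GRCm38.p6, from 250 bases before to 50 bases after each start, were matched for 34 of the 44 genes, and were searched on both strands for GAAANNGAAA, a core of the response element. Matches may overlap, as in Isg15. At least 1 match was present for 17 of the 34 genes (50%), against 1079 of 27025 genes overall (3.99%). Counted by window, it was 19 of 43 against 1131 of 32851 (3.44%). The shorter element of interferon gamma activated sites, TTCNNNGAA, was present for 6 of the 34 (17.6%), against 9.55% of all genes. The stretches below are the 150 bases before the start on the strand of the gene, 5′ to 3′, with each response element match in capitals. A match on the other strand appears as its reverse complement. Isg15 encodes a ubiquitin-like modifier, Ifit1 and Ifit3 encode proteins that bind viral RNA, and Rsad2 encodes viperin, an antiviral enzyme. Irf7 and Slfn1 are shown as genes whose windows held no match. The stretches lie at chr4:156200819-156200968 (minus strand) for Isg15, chr19:34640739-34640888 (plus) for Ifit1, chr19:34583379-34583528 (plus) for Ifit3, chr12:26456453-26456602 (minus) for Rsad2, chr7:141266425-141266574 (minus) for Irf7 and chr11:83116670-83116819 (plus) for Slfn1.
Isg15: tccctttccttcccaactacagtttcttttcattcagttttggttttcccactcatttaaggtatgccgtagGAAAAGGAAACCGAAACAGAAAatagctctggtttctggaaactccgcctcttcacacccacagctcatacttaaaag
Ifit1: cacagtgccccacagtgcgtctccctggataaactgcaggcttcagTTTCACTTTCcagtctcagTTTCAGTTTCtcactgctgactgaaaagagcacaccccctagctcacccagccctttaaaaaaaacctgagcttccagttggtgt
Ifit3: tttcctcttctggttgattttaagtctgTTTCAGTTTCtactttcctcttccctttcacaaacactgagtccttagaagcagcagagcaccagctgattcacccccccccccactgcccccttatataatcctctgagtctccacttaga
Rsad2: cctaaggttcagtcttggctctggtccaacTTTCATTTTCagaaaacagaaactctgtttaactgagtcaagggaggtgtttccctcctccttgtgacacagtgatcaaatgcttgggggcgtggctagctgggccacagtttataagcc
Irf7: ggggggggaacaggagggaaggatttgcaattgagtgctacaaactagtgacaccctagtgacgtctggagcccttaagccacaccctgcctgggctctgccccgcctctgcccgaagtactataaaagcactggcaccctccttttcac
Slfn1: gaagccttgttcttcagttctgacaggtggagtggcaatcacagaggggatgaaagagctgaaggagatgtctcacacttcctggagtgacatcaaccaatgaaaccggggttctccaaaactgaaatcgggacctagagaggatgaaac

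Isg15 held 3 overlapping matches and Ifit1 held 2. The window of Ifit3 held 2, of which 1 lies in the stretch shown. Over the 17 genes, 18 of 27 matches lay within 150 bases before the start, 6 lay after it and 3 further before it. Matches were counted in each window, and a Slfn8 site that lies in overlapping windows was counted in each of them. A match describes letters and does not show binding. In type 2 conventional dendritic cells (cDC2s), described below, 10 of 16 measured genes with a match and 11 of 16 without one were higher in KO. The counts higher in KO were 7 of 13 and 3 of 12 in CD4 T cells, 1 of 15 and 5 of 15 in macrophages and 2 of 9 and 2 of 11 in cDC1s. They were 0 of 12 and 1 of 13 in mature dendritic cells, 0 of 11 and 1 of 12 in T cells with neither co-receptor and 0 of 7 and 0 of 9 in CD8 T cells. Genes lower in KO numbered 2 with a match and 0 without one in CD8 T cells. They numbered 2 and 2 in mature dendritic cells, 1 and 2 in T cells with neither co-receptor and 0 in the other classes. No direction was common to the classes. The shares of all measured genes called are given with the single genes below.

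Several of the genes lie side by side. On mm10, Ifit2, Ifit3 and Ifit1 lie within 99.3 kb of chromosome 19, Rsad2 and Cmpk2 within 37.1 kb of chromosome 12, Oas2, Oas3 and Oas1a within 177 kb and Oasl2 and Oasl1 within 41.0 kb of chromosome 5, Slfn5, Slfn8 and Slfn1 within 171 kb of chromosome 11, and Parp14, Dtx3l and Parp9 within 140 kb of chromosome 16. Genes with close copies that the authors' counting could split (Ifit3 with Ifit3b, Oas1a with Oas1g, Slfn8 with Slfn9, Phf11b with Phf11a) have uncertain values. The same holds for genes whose exons overlap those of a neighbour. On the same strand these are Irf9, Parp14, Rtp4, Herc6 and Sp100. On the other strand they are Irf7, Dtx3l, Parp9, Usp18, Rnf213, Slfn5, Dhx58, Oasl1 and Eif2ak2.

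The WT library held 1120 barcodes and 9283014 UMIs (unique molecules), and the KO library 1219 barcodes and 11758449 UMIs. Filters left 983 and 1083 cells with median depths of 6168 and 8117 UMIs, and none of those cells shared a barcode between libraries. Levels are given as CPM, the UMIs of a gene or list in every 1000000 UMIs of the class. Tcf7, the targeted gene, was at 155 CPM in WT CD8 T cells and 53.7 in KO (KO to WT ratio 0.346, 0.271 to 0.441), and 52.1% of WT and 33.3% of KO CD8 T cells held a Tcf7 UMI. In CD4 T cells Tcf7 was also lower in KO, at 134 and 86.3 CPM (ratio 0.645, 0.496 to 0.838). There, 34.9% of WT and 36.6% of KO cells held a Tcf7 UMI, and the source of the difference was not tested. In T cells with neither co-receptor Tcf7 was at 171 and 189 (1.11, 0.806 to 1.52). The exons that the Cre removes are not given in the sources used here. Cells were clustered on both libraries together without the 44 genes, and classes were named from markers. T cells with neither co-receptor are those in which no Cd4, Cd8a or Cd8b1 UMI was detected, so they may still express a co-receptor. Their median depths, 3164.5 UMIs in WT and 3227 in KO, were the lowest of the compared classes. Of them, 44.8% in WT and 29.5% in KO lay in cluster 1, led by Cd40lg and Cd4. Cluster 10, led by Foxp3 and Ctla4, held 26.7% and 19.7%, and cluster 5 held 19.8% and 42.4%. Genes induced by interferon that are not among the 44 were not kept out of the clustering. All 5 T cell markers with a row were detected in each T cell class of each library, and each compared class had the highest summed level for the marker list of its own cell type. Ratios were computed in 7 classes with at least 50 cells in each library.

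Among the compared classes, cDC2s and macrophages held the most of these transcripts in both libraries. The summed level of the 44 genes ran from 4467 CPM in WT CD8 T cells to 20678 in KO macrophages, or 0.447% to 2.07% of all UMIs. In WT the order was CD8 T cells, type 1 conventional dendritic cells (cDC1s, which cross-present antigen to CD8 T cells) at 6884, CD4 T cells at 7000, T cells with neither co-receptor at 7018, mature dendritic cells at 7092, cDC2s at 12326 and macrophages at 14952, so that the classes from cDC1s to mature dendritic cells lay close together. Ifitm3 and Ifi27l2a alone gave 35.4% of the summed UMIs in WT CD8 T cells and 54.4% in WT cDC2s, so these genes weigh heavily in the sum. A core of 11 strongly inducible genes (Ifit1, Ifit2, Ifit3, Isg15, Usp18, Rsad2, Cmpk2, Oasl1, Oasl2, Mx1 and Ifi44) was also summed alone. It ran from 465 CPM in KO CD8 T cells to 3680 in KO macrophages.

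**Figure D1:**
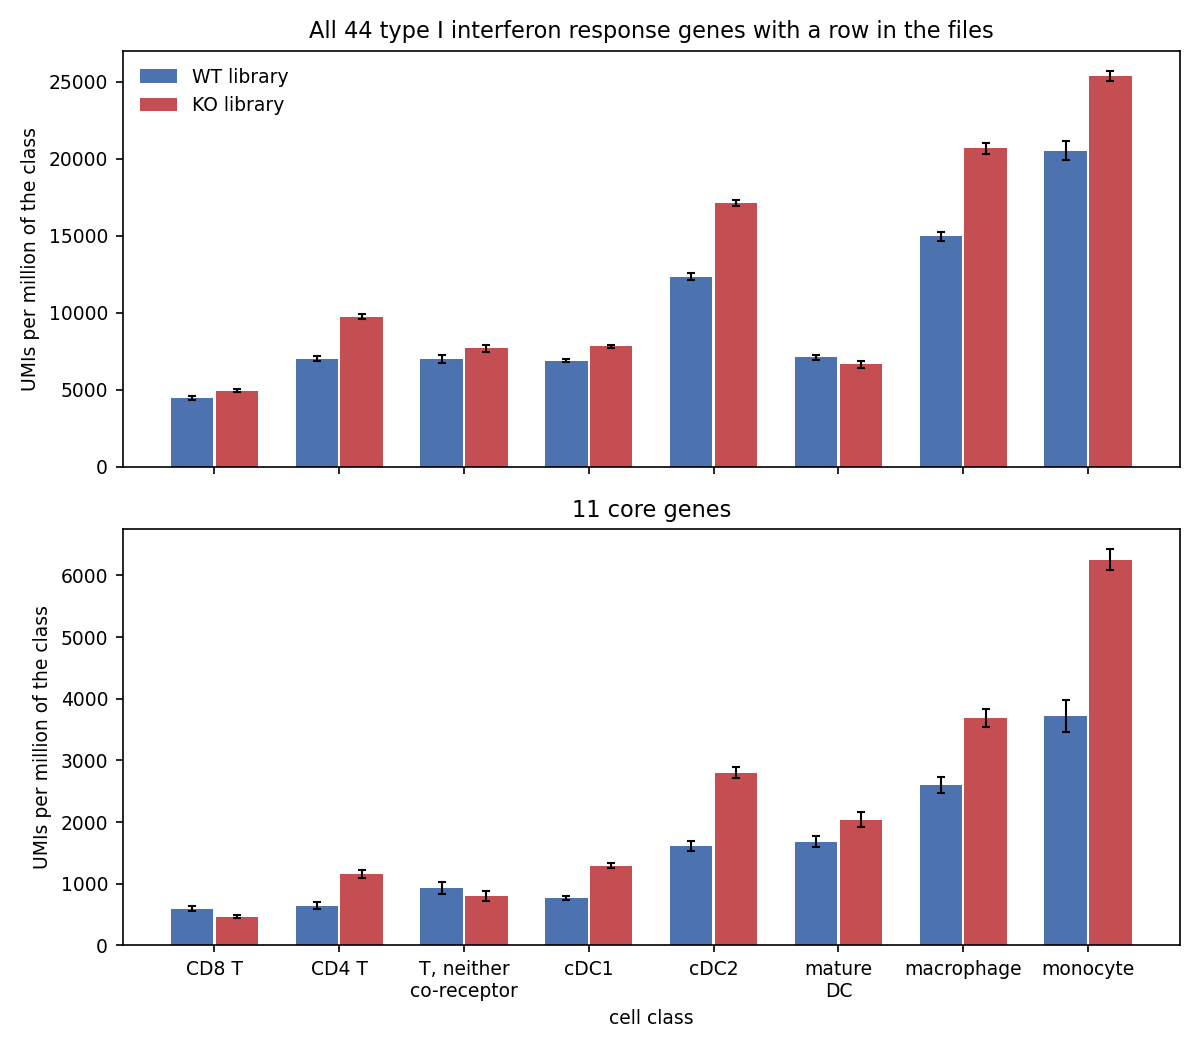
Summed level of the 44 genes and of the 11 core genes (UMIs per 1000000 UMIs of the class, as bars from 0) in each class, with WT and KO side by side and 95% counting intervals as error bars. Monocytes are shown by level only. The summed level is higher in KO than in WT in 6 of 7 compared classes, and mature dendritic cells go from 7092 to 6636.

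In KO, the summed level was higher than in WT in 6 of the 7 classes. CD4 T cells went from 7000 to 9734 CPM (ratio 1.39, 1.35 to 1.43), cDC2s from 12326 to 17135 (1.39, 1.36 to 1.42) and macrophages from 14952 to 20678 (1.38, 1.35 to 1.42). Smaller ratios were found in CD8 T cells (4467 to 4931), T cells with neither co-receptor (7018 to 7696) and cDC1s (6884 to 7830), at 1.10, 1.10 and 1.14. Mature dendritic cells, a state marked by Fscn1 and Ccl22, went from 7092 to 6636 (0.936, 0.897 to 0.976), and had a ratio of 1.10 when each cell was weighted equally. The ratio in CD8 T cells lies below 1 (log2 -0.19) without Ifitm3, Ifi27l2a, Bst2 and Isg15.

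The core genes separated the classes further. Their summed level was higher in KO in CD4 T cells (646 to 1157 CPM, ratio 1.79, 1.63 to 1.97), cDC2s (1603 to 2802, 1.75, 1.65 to 1.86), cDC1s (763 to 1295, 1.70, 1.61 to 1.79), macrophages (2603 to 3680, 1.41, 1.33 to 1.51) and mature dendritic cells (1677 to 2037, 1.21, 1.12 to 1.32). It was lower in KO in CD8 T cells (597 to 465, 0.779, 0.706 to 0.859) and in T cells with neither co-receptor (933 to 796, 0.854, 0.741 to 0.983). Single cells carried much of some sums. A single WT CD8 T cell held 20.5% of the core UMIs of its class, and without the top cell of each library the CD8 ratio was 0.895 (0.804 to 0.996). A single KO cDC1 held 16.4%, and without the top cells the cDC1 ratio was 1.51. A single WT cell held 19.4% of the core UMIs in mature dendritic cells and 18.1% in T cells with neither co-receptor, where the ratios without the top cells were 1.29 and 0.929 (0.798 to 1.08). With each cell weighted equally, the latter class went from 943 to 966 (ratio 1.03), and with classes drawn from marker UMIs alone from 881 to 1258 (1.43, 1.29 to 1.58), both against the direction of its sum.

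The macrophage values depend on which cells are called macrophages. Classes drawn from marker UMIs alone, with no clustering, held 34 WT and 33 KO macrophages, and there the core went from 3825 to 1596 CPM (ratio 0.417) and the summed level had a log2 ratio of -0.26. In the clustered class the median depth was 4983 UMIs in WT and 8404 in KO, the summed cDC2 markers went from 2458 to 3878 CPM and the monocyte markers from 2042 to 3158. The class's own markers went from 6632 to 9078. The part of these differences in the macrophage values was not tested. The marker rule also left only 29 and 49 cDC2s, with a core ratio of 1.23 (1.13 to 1.34). In the clustered cDC2 class all 8 monocyte markers were detected in both libraries, at a summed 2449 and 3022 CPM beside 3236 and 3464 for the cDC2 markers, and their part in the cDC2 values was not tested.

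Single genes were then counted. A gene was counted as measured in a class at 50 or more CPM in 1 library, and as higher or lower in KO when its ratio passed 1.5-fold with an interval that excludes 1. In cDC2s 26 of 41 measured genes were higher and 0 lower, against 5.32% higher and 5.29% lower of all measured genes, and all 44 levels were above WT. CD4 T cells had 11 of 31 higher and 0 lower (all genes 5.12% and 5.62%), and macrophages 10 of 39 higher and 0 lower (5.28% and 6.66%). In cDC1s 5 of 27 were higher and 0 lower (1.65% and 2.79%). T cells with neither co-receptor had 1 of 29 higher and 3 lower (5.02% and 8.11%), mature dendritic cells 2 of 32 higher and 4 lower (4.28% and 4.75%), and CD8 T cells 0 of 21 higher and 2 lower (6.47% and 5.60%). The median log2 ratio of the measured genes was 0.69 in cDC2s, 0.40 in CD4 T cells, 0.40 in macrophages, 0.18 in cDC1s, -0.02 in T cells with neither co-receptor, -0.07 in CD8 T cells and -0.25 in mature dendritic cells, beside medians between -0.09 and 0.09 over all measured genes. Some calls passed the level filter only through the library in which the gene was high, so that it had to differ. This held for 5 of the 11 genes higher in CD4 T cells, 2 of 5 in cDC1s, 3 of 26 in cDC2s, 1 of 2 in mature dendritic cells and 1 of 10 in macrophages, and for 3 of the 4 lower in mature dendritic cells and 1 of 3 lower in T cells with neither co-receptor.

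**Figure D2:**
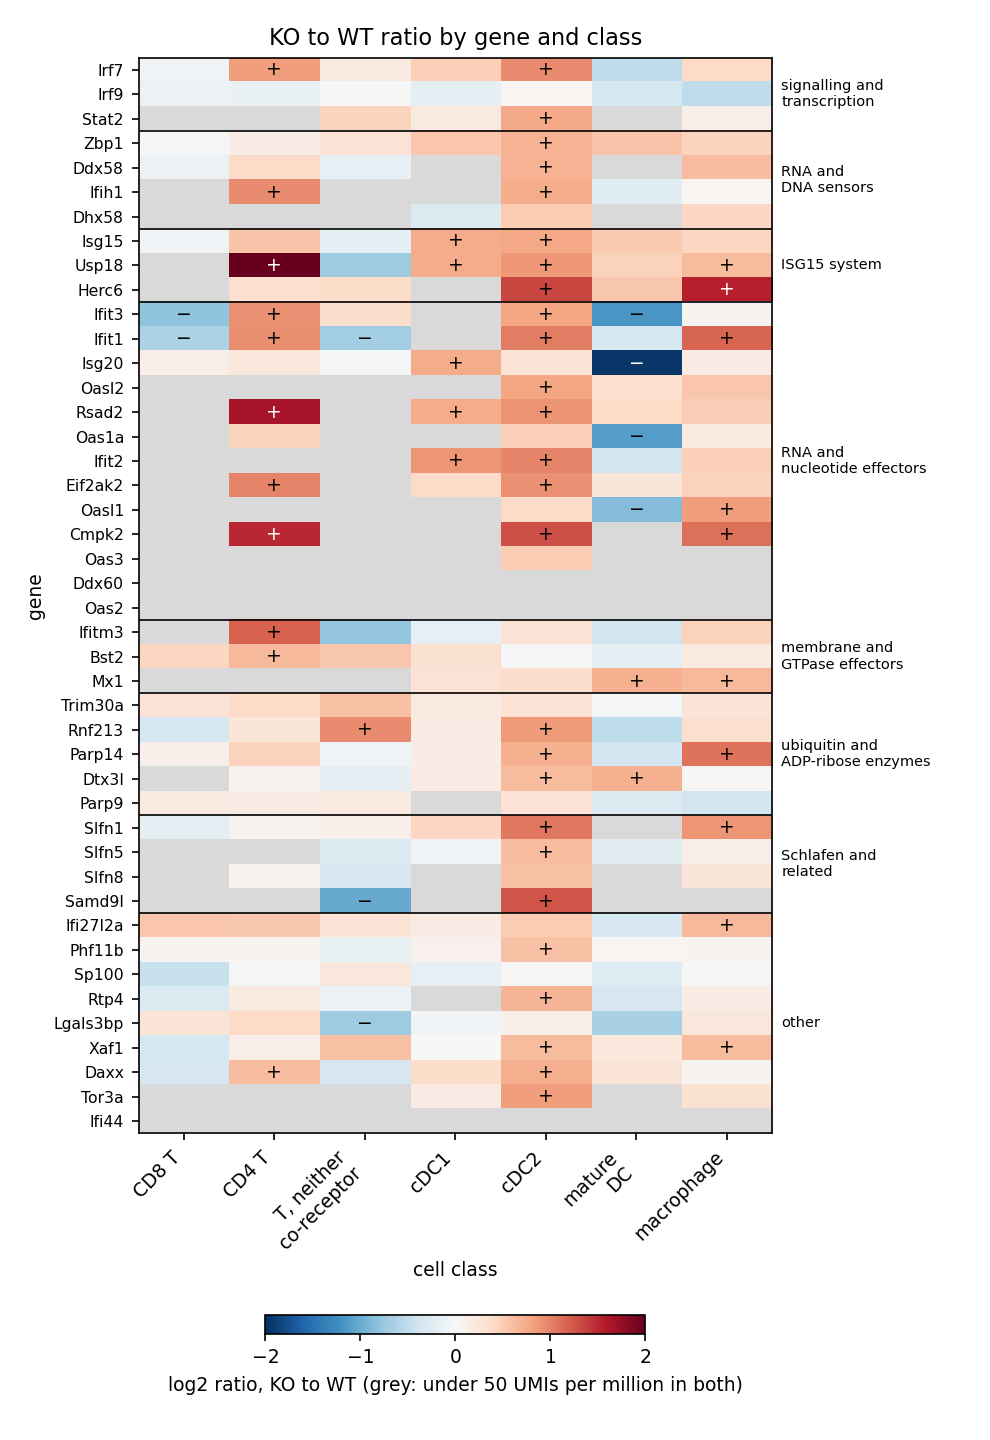
Log2 ratio of KO to WT level for the 44 genes (rows, grouped by role) in 7 classes (columns). A plus or minus sign marks genes past 1.5-fold with an interval excluding 1, and grey marks genes under 50 CPM in both libraries. The cDC2 column holds 26 plus signs and the mature dendritic cell column 4 minus signs.

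Over the 7 classes, 32 genes were higher in at least 1 class, 7 were lower in at least 1, and 5 of those were called both ways. Usp18 was higher in 4 classes, and Ifit1, Rsad2 and Cmpk2 in 3 each. Of the 44 genes, 10 were called in no class, among them Oas2, Ifi44 and Ddx60, which were measured in none.

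Signalling and transcription was represented by Irf7, a transcription factor that amplifies the response, Irf9 and Stat2. Irf7 was highest in macrophages, at 839 CPM in WT and 1110 in KO. It was higher in KO in CD4 T cells (147 to 262, ratio interval 1.46 to 2.18) and cDC2s (378 to 725, 1.70 to 2.17). Its levels were 122 and 116 in CD8 T cells, 224 and 253 in T cells with neither co-receptor, 491 and 683 in cDC1s and 362 and 253 in mature dendritic cells, none of which passed 1.5-fold. Irf9, a DNA-binding partner of Stat2, was flat by comparison, with levels between 57.1 and 93.5 CPM in all 14 class and library values and no call in any class. Stat2 was measured in 4 classes and was higher in 1, cDC2s, at 61.8 and 104 CPM.

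Among the sensors, Zbp1, which recognises left-handed nucleic acids, was at 197 CPM in WT cDC2s and 319 in KO, its single call (1.36 to 1.93). It was at 135 and 131 in CD8 T cells, 204 and 226 in CD4 T cells, 168 and 205 in T cells with neither co-receptor, 142 and 209 in cDC1s, 96.8 and 144 in mature dendritic cells and 262 and 357 in macrophages. Ddx58, which encodes the RNA sensor RIG-I, was also called in cDC2s alone, at 57.5 and 92.8 CPM, and lay at 8.29 and 6.30 in cDC1s. Its levels in the other classes lay between 32.6 and 77.9. Ifih1, which encodes the RNA sensor MDA5, was higher in cDC2s and CD4 T cells, and Dhx58 in none of 3 classes.

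The ISG15 system comprises the modifier Isg15, the protease Usp18, which removes it and restrains receptor signalling, and the ligase Herc6. Isg15 was lowest in CD8 T cells and highest in macrophages among the compared classes. It was higher in KO in cDC1s (457 to 766 CPM, 1.57 to 1.79) and cDC2s (721 to 1232, 1.56 to 1.87). Its cDC1 levels without the top cell of each library, which in KO held 15.9% of the UMIs, were 430 and 650. In CD8 T cells it was at 190 and 181, in CD4 T cells at 303 and 449, in T cells with neither co-receptor at 364 and 319, in mature dendritic cells at 947 and 1362 and in macrophages at 1260 and 1703. Usp18 had the highest ratio among the CD4 T cell calls, 20.3 and 86.3 CPM from 12 WT and 49 KO cells (ratio 4.26, 2.63 to 7.24). It was also higher in cDC1s (89.4 to 150), cDC2s (115 to 210) and macrophages (107 to 165), and was not called in mature dendritic cells (91.9 and 127), in CD8 T cells (48.7 and 47.2) or in the class without either co-receptor (75.4 and 45.9). Herc6 was higher in cDC2s (28.2 to 71.4) and macrophages (17.8 to 52.6, from 11 and 35 UMIs).

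Among the 13 RNA and nucleotide effectors, Ifit1, Ifit3, Isg20 and Oasl1 were called higher in at least 1 class and lower in at least 1 other. Ifit3 was higher in CD4 T cells (89.2 to 168 CPM, 1.46 to 2.44) and cDC2s (177 to 306, 1.44 to 2.08) and lower in CD8 T cells (118 to 67.6, 0.448 to 0.726) and mature dendritic cells (163 to 72.9, 0.303 to 0.645). Its other levels were 118 and 150 in T cells with neither co-receptor, 12.4 and 27.4 in cDC1s and 350 and 363 in macrophages. Ifit1 was higher in CD4 T cells (103 to 196), cDC2s (105 to 213) and macrophages (133 to 299) and lower in CD8 T cells (105 to 67.6) and in the class without either co-receptor (216 to 134), with 11.7 and 30.9 in cDC1s and 113 and 88.2 in mature dendritic cells. A single WT CD8 T cell held 25.3% of the Ifit3 UMIs of its class, and without the top cell of each library the CD8 levels were 89.1 and 62.0.

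Rsad2 and Cmpk2 are neighbours that encode viperin and the kinase that feeds it nucleotides. Both were higher in KO CD4 T cells, Rsad2 from 22.3 to 69.7 CPM (ratio 3.12, 1.94 to 5.24) and Cmpk2 from 19.3 to 54.6 (2.84, 1.69 to 4.99), and in cDC2s, Rsad2 from 88.9 to 166 and Cmpk2 from 20.6 to 50.6. Rsad2 was also higher in cDC1s (30.7 to 51.4) and Cmpk2 in macrophages (55.0 to 119). Ifit2 was higher in cDC1s (30 to 55.5, with 26.1% of the KO UMIs in 1 cell) and cDC2s. Isg20, an RNA exonuclease, was higher in cDC1s (63.2 to 106) and lower in mature dendritic cells (103 to 26.8, from 13 WT and 7 KO cells). Oas1a (57.6 to 26.8) and Oasl1 (73.5 to 40.3), of the oligoadenylate synthetase family that senses double-stranded RNA, were also lower in mature dendritic cells. Oasl1 was higher in macrophages and Oasl2 in cDC2s, and Eif2ak2, the RNA-activated kinase PKR, in CD4 T cells and cDC2s.

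Ifitm3, a membrane protein that blocks viral entry, was abundant in myeloid cells and scarce in T cells. Its levels were 1987 and 1770 CPM in cDC1s, 4887 and 5950 in cDC2s, 1450 and 1122 in mature dendritic cells and 3583 and 4943 in macrophages, without a call in any of them. In T cells it was at 34.9 and 26.8 in the CD8 class and 60.3 and 34.8 in the class with neither co-receptor, and was higher in KO CD4 T cells (66.9 to 151, 1.70 to 3.04). There, 1 cell held 37.9% of the WT UMIs and 1 cell 30.9% of the KO UMIs, and without them the levels were 41.7 and 107. In CD8 T cells 1 cell held 83.7% of the WT UMIs. Without the top cell of each library the CD8 levels were 5.84 and 17.4, in the other direction. Bst2, or tetherin, which holds virions at the cell surface, was higher in KO CD4 T cells as well (316 to 497). It was at 195 and 264 in CD8 T cells, 249 and 363 in T cells with neither co-receptor, 406 and 502 in cDC1s, 680 and 686 in cDC2s, 402 and 357 in mature dendritic cells and 895 and 1023 in macrophages. Mx1, a dynamin-like GTPase, was higher in mature dendritic cells (47.8 to 78.6) and macrophages (66.4 to 104).

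Among the ubiquitin and ADP-ribose enzymes, the ligase Trim30a had no call, with levels between 69.0 CPM in WT CD8 T cells and 211 in KO cDC1s. Rnf213, a large ubiquitin ligase, was higher in T cells with neither co-receptor (60.3 to 116 CPM, 1.18 to 3.21) and in cDC2s (85.6 to 154, 1.39 to 2.35), and lay between 49.9 and 153 in the other classes. Parp14 was higher in cDC2s and macrophages (66.4 to 141) and Dtx3l in cDC2s and mature dendritic cells (53.9 to 88.2), while Parp9, whose exons overlap those of Dtx3l on the other strand, was called in none. In the Schlafen group, Slfn1, which is known to restrain T cell growth, was higher in cDC2s (123 to 255, 1.68 to 2.59) and macrophages (194 to 357, 1.47 to 2.31). In T cells Slfn1 was at 137 and 120 in the CD8 class, 248 and 260 in the CD4 class and 277 and 295 in the class with neither co-receptor. Slfn5 was higher in cDC2s alone (131 to 202). Samd9l was higher in cDC2s (35.8 to 85.6) and lower in T cells with neither co-receptor (70.4 to 34.8, from 28 and 19 UMIs).

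Of the remaining 9 genes, Ifi27l2a was the most abundant in T cells. Its levels were 1545 and 2264 CPM in CD8 T cells (ratio interval 1.39 to 1.55), 3212 and 4651 in CD4 T cells (1.39 to 1.51), 2876 and 3492 in T cells with neither co-receptor, 994 and 1108 in cDC1s, 1821 and 2601 in cDC2s, 1109 and 896 in mature dendritic cells and 3677 and 5793 in macrophages (1.5 to 1.66), the single class in which it passed 1.5-fold. Phf11b was called in cDC2s alone (337 to 508) and was at 148 and 153 in CD8 T cells and 172 and 179 in CD4 T cells. Lgals3bp, a secreted glycoprotein, was lower in T cells with neither co-receptor (158 to 97.2). Rtp4, Xaf1, Tor3a and Daxx were higher in cDC2s, and Daxx also in CD4 T cells and Xaf1 in macrophages. Sp100, a nuclear body protein, had no call.

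T cell classes hold several clusters, and in CD8 T cells and in the class without either co-receptor the core ratios within clusters lay above 1 while that of the class lay below it. Over the 10 pairs of T cell class and cluster with at least 10 cells in each library, the core level was above WT in KO in 10, with an interval above 1 in 8 and below 1 in 0. Among CD8 T cells, cluster 2, led by Gzma, Gzmk and Cd8b1 and by Pydc3, an interferon-inducible gene, was at 1713 and 2054 CPM (ratio 1.20, 1.05 to 1.37). Cluster 5, led by Dapl1, Lef1 and Satb1, was at 271 and 658 (2.43, 1.76 to 3.41). Cluster 14, led by Prf1 and Xcl1, was at 137 and 280 (2.05, 1.51 to 2.82), and cycling cluster 9 at 121 and 166 (1.37, 0.925 to 2.06). Cluster 2, the cluster with the highest core level, held 47.3% of WT but 23.5% of KO CD8 T cells, and cluster 14 held 14.8% and 31.7%. Cycling cells, which are deep and weigh more in a sum, were 14.8% of WT and 30.6% of KO CD8 T cells. Without them the core levels of the CD8 class were 931 and 962 CPM (ratio 1.03, 0.931 to 1.15), and 899 and 835 when each cell of the whole class was weighted equally.

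**Figure D3:**
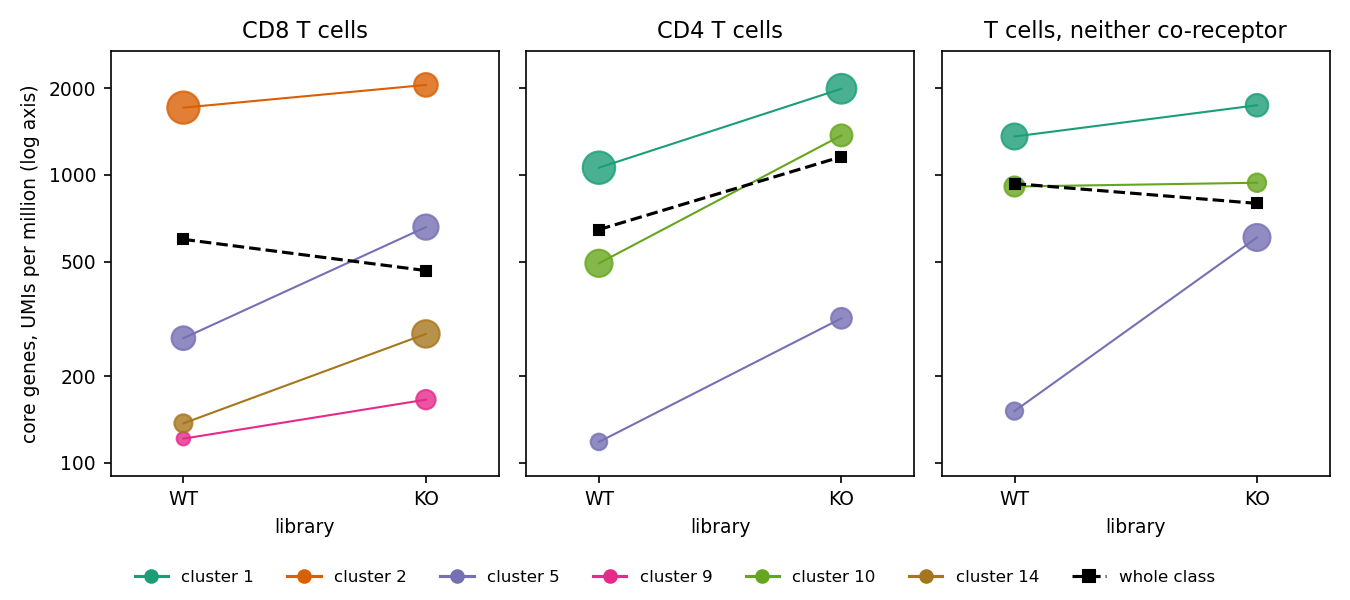
Summed level of the 11 core genes in CPM (log axis) in WT and KO for each cluster of 3 T cell classes, with point area proportional to the number of cells and the whole class as a dashed line. Each cluster line goes up from WT to KO, while the dashed lines of CD8 T cells and of T cells with neither co-receptor go down.

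The CD4 clusters were all higher in KO. Cluster 1, led by Cd40lg and Cd4, went from 1059 to 1992 CPM of core genes (ratio 1.88, 1.63 to 2.18), the regulatory T cell-like cluster 10, led by Foxp3 and Ctla4, from 493 to 1372 (2.78, 2.32 to 3.34), and cluster 5 from 118 to 317 (2.69, 1.27 to 6.34). In T cells with neither co-receptor, cluster 5 went from 151 to 606 (4.01, 2.16 to 8.28) and made up 19.8% of the WT and 42.4% of the KO class. Clusters 1 and 10 of that class had ratios of 1.28 and 1.03. Without cycling cells, 5.17% and 6.06% of the class, its core levels were 785 and 1003 (1.28, 1.09 to 1.49). Among cDC1s, the main cluster 6 went from 803 to 1512 (1.88, 1.78 to 2) and the cycling cluster 12 from 663 to 792 (1.19, 1.06 to 1.35).

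Levels of a class can come from many cells or from few. Each cell was thinned to 2000 UMIs and called strongly responding with at least 5 core UMIs, leaving out the shallower cells (10 WT and 7 KO in CD8 T cells, 18 and 10 in macrophages). Over all classes 112 of 886 WT cells (12.6%) and 226 of 1009 KO cells (22.4%) were strongly responding, and the make-up of the libraries enters these totals. The core UMIs had long tails. After thinning, 66% of WT and 58.5% of KO CD8 T cells held none, and the highest cells held 44 and 36. In cDC2s 35% and 18.3% held none, and the highest held 29 and 45.

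In the draw used, the share of strongly responding cells was higher in KO for cDC2s, CD4 T cells, cDC1s, mature dendritic cells and macrophages. The intervals count cells of 1 pooled library per genotype as if independent. They cover no difference between tumors or libraries and are not a test of genotype. In cDC2s it was 13 of 60 cells (21.7%, 12.1 to 34.2) in WT and 43 of 104 (41.3%, 31.8 to 51.4) in KO, a difference of 19.7 points (3.91 to 33.6). In CD4 T cells it was 15 of 159 (9.43%) and 31 of 165 (18.8%), a difference of 9.35 points (1.36 to 17.3). In cDC1s it was 15 of 174 (8.62%) and 31 of 186 (16.7%), a difference of 8.05 points (0.796 to 15.2), and 0.241 points when Isg15 was left out of the core. Mature dendritic cells had 12 of 91 (13.2%) and 15 of 56 (26.8%), a difference of 13.6 points whose interval reached below 0 (-0.398 to 28.5), and -1.65 points without Isg15. Macrophages had 14 of 51 (27.5%) and 20 of 53 (37.7%), a difference of 10.3 points (-9.00 to 28.7), and -21.4 points with classes from marker UMIs alone. For CD8 T cells the shares were 17 of 159 (10.7%) and 16 of 176 (9.09%), -1.60 points (-8.60 to 5.21), and for T cells with neither co-receptor 12 of 94 (12.8%) and 13 of 104 (12.5%), -0.266 points (-10.5 to 9.67). Both of these intervals include 0.

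**Figure D4:**
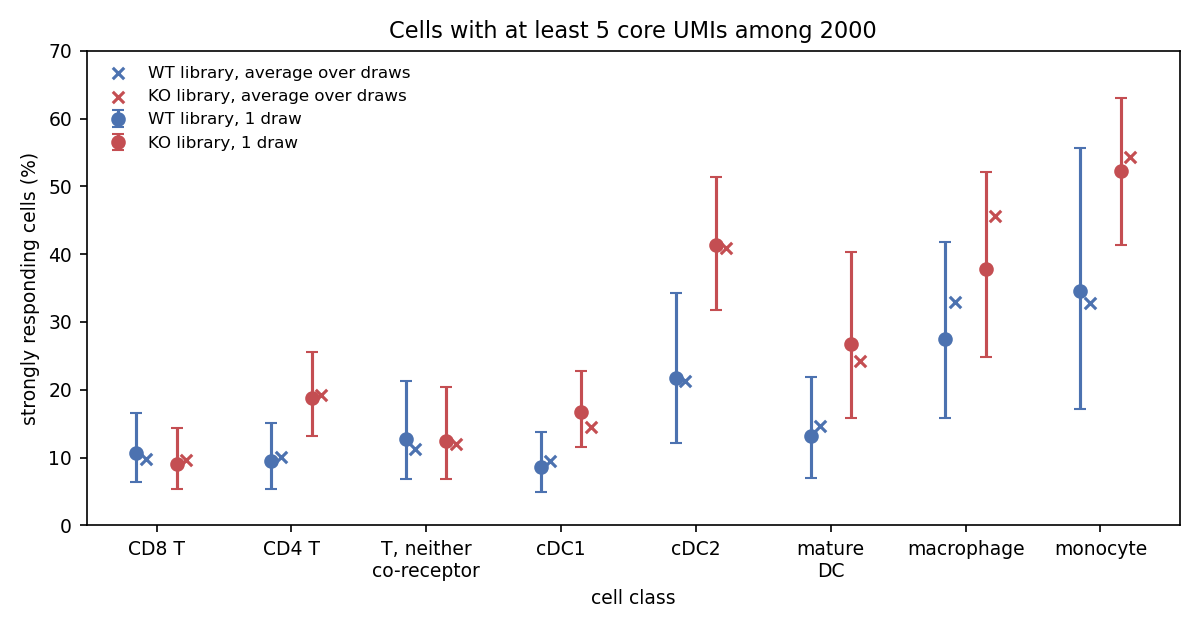
Percentage of strongly responding cells (at least 5 core UMIs among 2000) in each class, WT beside KO, with Clopper-Pearson 95% intervals; crosses give the share averaged over all draws. The cDC2 shares are 21.7% and 41.3%, and the CD8 T cell shares 10.7% and 9.09%.

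The cut runs through a continuous range. Cells with 4 or 5 core UMIs numbered 5 in WT and 16 in KO cDC2s, 7 and 10 in CD4 T cells, and 11 and 19 in cDC1s. Averaged over all possible draws the shares were 21.3% and 41.0% in cDC2s, 10.0% and 19.3% in CD4 T cells, 9.44% and 14.5% in cDC1s and 32.9% and 45.6% in macrophages. Without thinning, cells with core genes at 0.25% or more of their UMIs were 17.7% and 36.4% of cDC2s, 8.57% and 20% of CD4 T cells and 6.25% and 11.2% of cDC1s. In cDC1s both measures gave a smaller gap between the libraries than the single draw. No class here is known to lack these genes, so free RNA was not measured against an empty class, and its part in the shares was not tested.

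By cluster, responding CD8 T cells came mainly from cluster 2, with 13 of 73 WT cells (17.8%) and 9 of 41 KO cells (22.0%). Cycling cluster 9 held 0 of 14 and 0 of 29, which allow shares of up to 21.4% and 10.3%. In CD4 T cells, cluster 1 went from 9 of 68 (13.2%) to 16 of 61 (26.2%) and the regulatory T cell-like cluster 10 from 5 of 55 (9.09%) to 9 of 35 (25.7%).

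The cells were chosen on the core, so the 33 genes outside it give a separate view of them. Their summed level was higher in strongly responding cells in each class and library with at least 10 such cells. The ratio to the other cells of the class was 3.89 (3.63 to 4.17) in WT and 3.11 (2.93 to 3.30) in KO CD8 T cells, 2.72 and 3.13 in CD4 T cells, 3.75 and 2.56 in T cells with neither co-receptor, 2.05 and 2.32 in cDC1s, 1.89 and 1.55 in cDC2s, 5.37 and 2.48 in mature dendritic cells and 2.13 and 1.4 in macrophages. The 1.5-fold rule was applied to the same pairs of cells, and the percentages are those of all measured genes called higher and lower. In WT CD8 T cells 29 of 30 measured genes outside the core were higher in responding cells and 0 lower (10.9% and 8.05%), and in KO 30 of 30 and 0 (15.8% and 11.1%). CD4 T cells had 28 of 32 and 0 in WT (9.09% and 4.65%) and 32 of 32 and 0 in KO (14.8% and 6.89%). The class without either co-receptor had 23 of 31 and 0 in WT (6.91% and 2.31%) and 22 of 30 and 0 in KO (7.75% and 3.36%). Many genes reached 50 CPM in the responding cells alone and could then only be higher: 17 of the 30 in WT and 18 of 30 in KO CD8 T cells, and 13 of 32 and 14 of 32 in CD4 T cells. Of those at 50 CPM or more in the other cells, 12 of 13 and 12 of 12 were higher in CD8 T cells and 18 of 19 and 18 of 18 in CD4 T cells. The cDC1s had 22 of 28 and 0 in WT (8.56% and 5.17%) and 29 of 30 and 0 in KO (11.2% and 3.32%). The cDC2s had 26 of 31 and 0 in WT (12% and 6.51%) and 27 of 31 and 0 in KO (10.7% and 3.69%). Mature dendritic cells had 28 of 31 and 0 in WT (19.9% and 10.3%) and 21 of 27 and 0 in KO (10.1% and 5.47%). Macrophages had 26 of 30 and 0 in WT (12.4% and 11.3%) and, with the lowest share of the compared pairs, 13 of 31 and 0 in KO (7.98% and 4.16%). KO monocytes had 27 of 32 and 0 (13.6% and 7.88%). Among genes at 50 CPM or more in the other cells, 15 of 19 and 23 of 27 were higher in WT and KO cDC2s, 14 of 18 and 18 of 19 in cDC1s, 11 of 13 and 10 of 12 in mature dendritic cells, 20 of 22 and 9 of 23 in macrophages, and 14 of 17 and 14 of 19 in T cells with neither co-receptor. Depth was close between the 2 kinds of cells in cDC2s (medians of 13811 and 14452 UMIs in WT), and lower in the responding cells of KO CD8 T cells (4536 against 7442), of which 0% were cycling against 35%. Responding cells were deeper in WT mature dendritic cells (11269 against 7927), the pair with the highest ratio. In WT macrophages they were shallower (7410 against 12490).

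**Figure D5:**
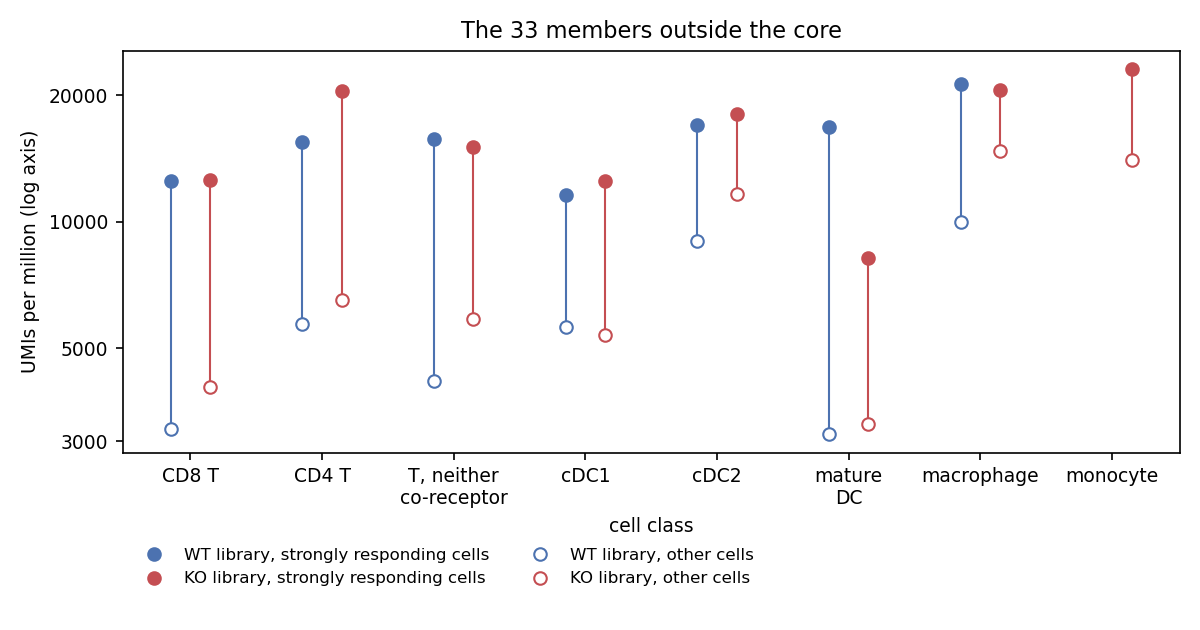
Summed level of the 33 genes outside the core, in CPM (log axis), in strongly responding (filled) and other cells (open) of each class and library. Responding cells are higher in each pair shown, from 1.4 times in KO macrophages to 5.37 times in WT mature dendritic cells.

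Irf7 shows the pattern in single genes. In responding against other cells it was at 579 and 87.9 CPM in WT CD8 T cells, 627 and 88.8 in KO CD8 T cells, 828 and 165 in KO CD4 T cells, 1140 and 401 in KO cDC2s and 1570 and 116 in WT mature dendritic cells. Zbp1 was at 748 and 87.9 in WT and 667 and 102 in KO CD8 T cells. Bst2 was at 845 and 149 in WT CD8 T cells, and at 894 and 621 in WT cDC2s, where it did not pass 1.5-fold. Ifitm3 was at 0 UMIs in the 17 responding WT CD8 T cells, and at 239 and 15.8 CPM in KO.

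Genotype values within each kind of cell differed by class. In the other cells, those not strongly responding, the genes outside the core were higher in KO in macrophages (9966 to 14748 CPM, ratio 1.48), T cells with neither co-receptor (4183 to 5866, 1.4), cDC2s (8979 to 11642, 1.3), CD8 T cells (3209 to 4036, 1.26) and CD4 T cells (5695 to 6519, 1.14). They were close in mature dendritic cells (1.06, 0.987 to 1.14) and lower in cDC1s (0.957, 0.935 to 0.979). In responding cells they were at 12491 and 12566 in CD8 T cells (1.01, 0.926 to 1.09), 16981 and 18005 in cDC2s (1.06), 15487 and 20430 in CD4 T cells (1.32) and 16741 and 8185 in mature dendritic cells (0.489, 0.455 to 0.525). Ifi27l2a, at 1545 and 2264 CPM in the whole CD8 class, and Ifitm3 are among the genes outside the core. No sum without them is given by kind of cell. For the whole CD8 class, the ratio of the summed level lies below 1 without Ifitm3, Ifi27l2a, Bst2 and Isg15.

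Genes outside all lists that were highest in responding over other cells are given as a description, since the cells were chosen on related genes. They were ranked by the smaller of the WT and KO ratios, among genes at 50 CPM or more in the responding cells and detected in the other cells of both libraries. Ifit3b, the close copy of Ifit3, ranked first in the 3 T cell classes and in cDC2s. Cxcl10, a chemokine that attracts T cells through CXCR3, ranked first in cDC1s, mature dendritic cells and macrophages. In cDC2s it was at 1605 and 18.1 CPM in responding and other WT cells and at 1356 and 188 in KO. Tgtp2, an interferon-inducible GTPase, was at 434 and 54.5 in WT and 408 and 60.4 in KO CD8 T cells. In mature dendritic cells Ly6a was at 2211 and 91.6 in WT and 1452 and 151 in KO, and Kdr at 353 and 7.51 in WT and 165 and 18.5 in KO. Whether cells of other types lie among the responding mature dendritic cells was not tested. Responding cDC1s also held more Cd209a, a cDC2 marker, at 237 and 36.6 in WT and 215 and 24.4 in KO, and Cd40, at 106 and 15.1 in WT and 137 and 34.2 in KO. Ms4a4c, of the monocyte marker list, was at 421 and 58.9 in WT and 331 and 63.5 in KO. The remaining genes of these marker lists are not given here by kind of cell. Whether cells of other types lie among the responding cDC1s was not tested. In macrophages Spp1, a secreted phosphoprotein, was at 9571 and 1381 in WT and 1697 and 169 in KO.

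Genes upstream of the response gave few values. Of 20 interferon ligand genes, 1 was detected, Ifnz, with 2 UMIs in WT and 0 in KO. The receptor and kinase genes Ifnar1, Ifnar2, Jak1 and Tyk2 had 0 calls in any class, and the 10 sensor and adaptor genes upstream of interferon, such as Tlr3, Myd88 and Mavs, had 0 calls with 1 to 3 measured. Ifnar1 was at 70.5 and 48.0 CPM in cDC2s and 65.9 and 61 in CD4 T cells, and Jak1 at 105 and 122 in cDC2s and 236 and 232 in CD4 T cells.

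Of 10 genes that interferon gamma mainly induces, 8 of 9 measured were higher in KO cDC2s, 5 of 8 in cDC1s, 5 of 8 in mature dendritic cells, 3 of 8 in macrophages, 1 of 6 in CD4 T cells, 1 of 6 in T cells with neither co-receptor and 0 of 5 in CD8 T cells, with 0 lower in each. The shares of all measured genes called higher in these classes were 5.32%, 1.65%, 4.28%, 5.28%, 5.12%, 5.02% and 6.47% in that order. Genes of this list that reached 50 CPM in KO alone could only be higher, which limits the reading of these counts. This held for Cxcl9 in mature dendritic cells and for Iigp1 in cDC1s and macrophages, at the levels below. How many calls of the list it affects was not counted. Cxcl9, a chemokine for activated T cells, was at 86.0 and 349 CPM in cDC1s (ratio 4.05, 3.53 to 4.67), 195 and 705 in cDC2s (3.61) and 28.2 and 397 in mature dendritic cells, where 3 WT and 13 KO cells held all of its UMIs and 1 WT cell held 82.6%. Gbp2, a guanylate-binding protein, was at 102 and 328 in cDC2s and 186 and 318 in mature dendritic cells. Iigp1, an immunity-related GTPase, was at 25.6 and 79.4 in cDC1s and 35.6 and 150 in macrophages. Socs1, an inhibitor of cytokine signalling, was at 67.2 and 169 in cDC2s. In strongly responding against other cells, 6 of 6 measured genes of this list were higher in WT and 7 of 7 in KO CD8 T cells. The counts were 8 of 9 in each cDC2 library, 5 of 8 in each macrophage library and 3 of 7 and 4 of 6 in T cells with neither co-receptor. Lower were 2 in WT and 1 in KO macrophages, 1 in KO cDC1s and 1 in WT mature dendritic cells. The shares of all measured genes are given above for the same pairs. Genes of this list at 50 CPM in the responding cells alone could again only be higher, and their number was not counted. Whether the type I and type II values share a source was not tested.

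Monocytes, at 28 WT and 88 KO cells, were too few in WT for ratios and are given as levels. Their summed level was the highest of the classes with at least 20 cells, 20529 CPM in WT (19929 to 21142) and 25382 in KO (25040 to 25727). The core was at 3713 (3460 to 3979) and 6253 (6084 to 6426), and 1 WT cell held 24.7% of its core UMIs. Isg15 was at 1785 and 2663 CPM, Ifit3 at 194 and 686, Rsad2 at 388 and 739, Ifitm3 at 6667 and 7463, and Ifi27l2a at 3588 and 3093. Strongly responding cells were 9 of 26 in WT (34.6%, 17.2 to 55.7) and 46 of 88 in KO (52.3%, 41.4 to 63.0), and these intervals overlap.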

How the data were processed

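Raw UMI counts per gene and cell were deposited by the authors as 1 filtered 10x matrix per library, made with Cell Ranger 1.3 on mm10 per the submitters' processing notes, while the matrix header names software 3.0.2. From these counts, barcodes below 500 UMIs, below 300 genes or above 10% mitochondrial UMIs were left out. Filters removed 132 WT and 133 KO barcodes, and Scrublet, at an expected rate of 6%, then called 5 (0.506%) and 3 (0.276%) doublets, so doublets may remain. Cells of both libraries were clustered together with scanpy 1.11.5 (scipy 1.17.1, numpy 2.4.6, python 3.11.15) on 2000 variable genes that held none of the 44 genes, with 30 components, 15 neighbours and resolution 1, giving 17 clusters. T cells were split by detected Cd4, Cd8a and Cd8b1 UMIs, so the class with neither co-receptor can hold cells whose co-receptor transcripts were missed.

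UMIs were summed per class and library and given as CPM (per 1000000 UMIs of the class), with exact Poisson intervals for levels, exact conditional binomial intervals for ratios, Clopper-Pearson intervals for shares and the floor of 3 counts for a share of 0. With 1 library per group, made from 3 tumors, no p-value was computed. The ratio and call rule was run on simulated Poisson counts at the depth of the CD4 T cells. Those counts hold no spread between cells, so the simulation does not test the intervals where single cells hold much of a sum.

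Printed genes are the called members of each class, up to 6 in each direction by the interval bound nearest to 1, and the 2 members of each role group with the highest mean level; other members are given by counts, and those named beyond this rule, such as genes of responding cells, were chosen after their values were seen. The members and lists were chosen with earlier results of these data known. Alternatives covered thresholds, scaling, class definition, the core and single cells.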

Additional observations from a re-analysis of the deposited data

Results flagged for a closer look

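The summed level of the core genes moved in opposite directions between classes. The log2 ratio of KO to WT was -0.36 in CD8 T cells and -0.23 in T cells with neither co-receptor. It was 0.84 in CD4 T cells, 0.76 in cDC1s, 0.81 in cDC2s, 0.28 in mature dendritic cells and 0.50 in macrophages. With 1 library per genotype the difference between classes was not tested. Without cycling cells the core ratios in CD8 T cells and in T cells with neither co-receptor were 1.03 and 1.28, and with classes drawn from marker UMIs alone they were 0.850 and 1.43, while that in macrophages was 0.417.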

How the results depend on the processing

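Of the values recomputed under other settings, 198 stayed close to those reported, 76 moved and 3 summed log2 ratios reversed in direction; causes were not tested. Among the values counted as close or moved, the difference in strongly responding share changed sign 10 times, 6 in T cells with neither co-receptor, 2 in CD8 T cells, 1 in macrophages and 1 in mature dendritic cells, the classes whose reported interval includes 0. Core ratios were not among these values, and the report gives those that cross 1. The log2 ratio of the summed level reversed in macrophages with classes from marker UMIs alone (-0.26), in mature dendritic cells when CPM was averaged over cells (0.14) and in CD8 T cells without Ifitm3, Ifi27l2a, Bst2 and Isg15 (-0.19).

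Other summed log2 ratios moved. With marker UMIs alone they were 0.30 in cDC2s and 0.30 in T cells with neither co-receptor. With the mean of cells they were 0.22 in the CD8 class, 0.68 in the CD4 class, 0.33 in T cells with neither co-receptor, 0.27 in cDC1s, 0.52 in cDC2s and 0.55 in macrophages. With median-ratio scaling they were 0.053 in CD8 T cells, 0.23 in T cells with neither co-receptor and 0.15 in cDC1s. Without the 4 abundant genes they were 0.36 in CD4 T cells, 0.0073 in T cells with neither co-receptor, 0.28 in cDC1s, 0.66 in cDC2s and 0.38 in macrophages. Without cycling cells they were 0.41 in the CD8 class, 0.68 in the CD4 class, 0.34 in T cells with neither co-receptor, 0.32 in cDC1s, 0.41 in cDC2s and 0.55 in macrophages. Without the cell with the most member UMIs they were 0.20 in CD8 T cells, 0.14 in cDC1s and 0.52 in macrophages. Without cDC2s that held 2 or more Siglech UMIs, chosen after seeing the data, the cDC2 value was 0.43.

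Counts of called genes also moved. At 2-fold, higher counts were 4 in CD4 T cells, 0 in T cells with neither co-receptor, 0 in cDC1s, 5 in cDC2s, 0 in mature dendritic cells and 4 in macrophages, and lower counts 0 in CD8 T cells and 1 in T cells with neither co-receptor. With a minimum of 10 UMIs in both libraries together, or of 20 CPM, 4 were lower in CD8 T cells and 11 higher in cDC1s. At 200 CPM, higher counts were 2 in CD4 T cells, 0 in T cells with neither co-receptor, 1 in cDC1s, 11 in cDC2s, 0 in mature dendritic cells and 3 in macrophages, and lower counts 0 in CD8 T cells, 1 in T cells with neither co-receptor and 0 in mature dendritic cells. With marker UMIs alone, higher counts were 1 in the CD8 class, 17 in the CD4 class, 6 in T cells with neither co-receptor, 11 in cDC2s and 0 in macrophages, and lower counts 1 in T cells with neither co-receptor and 12 in macrophages. With the mean of cells, higher and lower counts were 1 and 1 in CD8 T cells, 2 and 1 in T cells with neither co-receptor and 4 and 2 in mature dendritic cells. With the members left in the clustering, 2 were higher in T cells with neither co-receptor and 6 in macrophages, and with median-ratio scaling 4 in the former. Without cycling cells, 4 were higher and 1 lower in CD8 T cells, 5 higher and 1 lower in T cells with neither co-receptor and 10 higher in cDC1s. Without the top cell, 1 was lower in CD8 T cells, 5 higher in T cells with neither co-receptor, 2 higher in cDC1s, and 4 higher and 2 lower in mature dendritic cells.

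The difference in strongly responding share moved to -21.4 points in macrophages with marker UMIs alone, and without Isg15 in the core to 0.241 points in cDC1s and -1.65 in mature dendritic cells. No paired analysis was possible because each genotype has 1 library, and for the same reason no replicate could be left out. Intervals cover counting error only, and differences between tumors could not be measured.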
